A study of Mus musculus with 14 samples.

Results

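The genes described here encode the nuclear part of the mitochondrial respiratory chain, measured in the colon of mice with and without the glucocorticoid receptor (GR) in the intestinal epithelium. A gene was a member if its symbol, reached from the RefSeq accession of the probe, started with *Ndufa*, *Ndufb*, *Ndufc*, *Ndufs*, *Ndufv*, *Uqcr*, *Cox4i*, *Cox5*, *Cox6*, *Cox7*, *Cox8* or *Atp5*, or was *Sdha*, *Sdhb*, *Sdhc*, *Sdhd* or *Cycs*. This gave 92 of the 19092 named genes on the array, carried by 118 of its 41174 probes, and each gene is shown by its brightest probe. Of the members, 36 belong to complex I, 4 to complex II, 8 to complex III, 19 to complex IV (with *Ndufa4*) and 17 to complex V, and *Cycs* encodes cytochrome c. The remaining 7, *Ndufaf1* to *Ndufaf7*, share the *Ndufa* prefix but encode assembly factors of complex I, and they are kept apart from the 85 subunit and cytochrome c genes. The array carries a named probe for 0 of the 13 mitochondrially encoded subunits, so that side of the chain was not measured.

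Electrons from NADH enter the chain at complex I and those from succinate at complex II, pass through complex III and cytochrome c to complex IV, and the proton gradient built on the way drives ATP synthesis by complex V. Most subunits of these complexes are encoded in the nucleus, made in the cytosol and imported, and complexes I, III, IV and V also need partners made from mitochondrial DNA. Glucocorticoids act through GR on fuel use in many tissues, and colon epithelium is a tissue with a high demand for mitochondrial ATP.

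The data were 14 single-color arrays of total colon RNA, 1 per mouse, from male C57BL/6 mice kept on chow. All mice were adrenalectomized (ADX), which removes the adrenal source of their own corticosterone. The paper says that the intestinal epithelium releases glucocorticoids too. The mice received 1 mg/kg of the synthetic glucocorticoid dexamethasone (DEX) or its vehicle, phosphate-buffered saline (PBS), 2 weeks after the surgery. The colon was taken 6 hours after injection, at 8 to 10 weeks of age by the labels, although the paper puts the surgery at an older age than the labels do. The design asks how colon transcripts respond to DEX when epithelial GR is present and when it is deleted. Flox mice carry the GR gene flanked by loxP sites and keep the receptor, with 4 arrays for Flox PBS and 3 for Flox DEX. GR iKO mice carry the same allele with a Villin-driven Cre that deletes it in intestinal epithelium, with 3 arrays for GR iKO PBS and 4 for GR iKO DEX.

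All 4 groups have the same strain, sex, diet, surgery and time point. Cells of the colon outside the epithelium keep GR in GR iKO mice, and RNA of the whole colon holds both kinds of cell. The transcript of GR, *Nr3c1*, was lower after the deletion, with log2 differences between GR iKO and Flox of −0.90 with PBS and −1.24 with DEX. Each group was hybridized on its own slide, so group and slide cannot be told apart. The 75th percentile of the intensity of an array lay between 566.2 and 774.1, and 28302 to 30518 probes per array were marked by the scanner software as well above background. Values below are log2 signals relative to that percentile, and a change is called where limma gave an adjusted p under 0.05, with adjustment over all probes of the array. With 3 or 4 arrays per group, the number of arrays limits the precision.

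Most chain genes were clearly expressed and varied little from mouse to mouse. Of the 92 members, 89 were well above background on all 14 arrays, while *Cox7b2* and *Cox8c* were so on 0 arrays and *Cox4i2* on 10. The standard deviation within groups had a median of 0.11 over members, beside 0.24 over all probes and 0.13 over the 6181 probes in the same range of signal. *Uqcr10* varied least, with 0.06, and the widest values belonged to *Cox8b* with 0.72, *Cox8c* with 0.71 and *Cox7b2* with 0.55. Taken relative to the Flox PBS mean of each gene, the median member stood at 0.06, −0.07, 0.02 and −0.01 on the Flox PBS arrays and at 0.06, 0.06 and −0.06 on the Flox DEX arrays. On the GR iKO PBS arrays it stood at 0.15, 0.01 and −0.03, and on the GR iKO DEX arrays at −0.12, −0.01, 0.10 and 0.04. The lowest and the highest array were both from GR iKO mice, and all 4 groups overlapped. Markers of colon epithelium, 8 genes, had array means from 6.22 to 6.49 and 0 calls in any comparison. All 6 goblet cell markers were above 0 with DEX in GR iKO mice, where *Fcgbp* rose by 0.92 (limma adjusted p = 0.0472), and all 6 were below 0 in GR iKO against Flox mice with PBS, with 0 calls by limma. Markers of exocrine pancreas ranged from −3.06 to 7.68 and were high on Flox PBS replicate 2, Flox DEX replicates 1 and 2 and GR iKO DEX replicates 2 and 4, and what part such tissue had in the signal of the members was not tested.

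**Figure D1:**
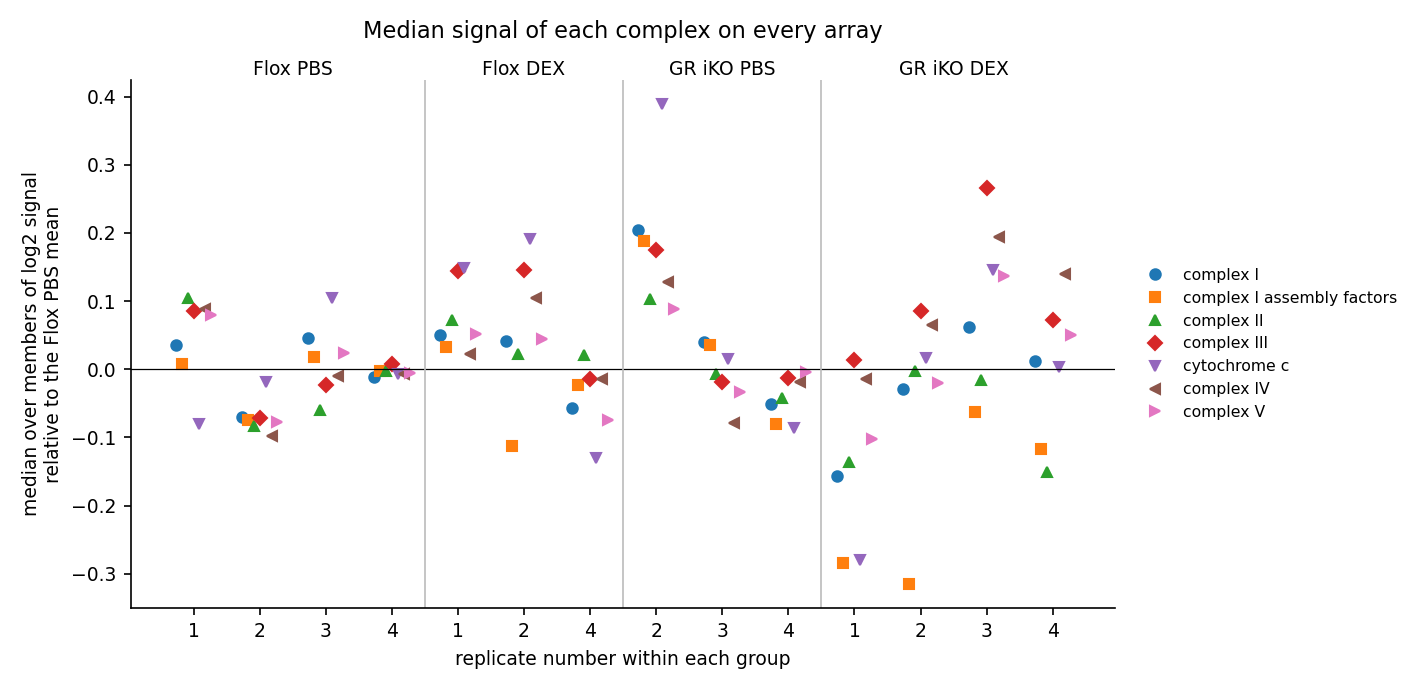
Median over the members of each complex of the log2 signal relative to the Flox PBS mean of each gene, on every array. Groups are divided by gray lines, symbols mark the complexes and the horizontal line is 0.

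*Cycs* (gene 13063, chromosome 6), which links complexes III and IV, is given as an example. It measured 5.87, 5.93, 6.05 and 5.94 in Flox PBS, 6.10, 6.14 and 5.82 in Flox DEX, 6.34, 5.96 and 5.86 in GR iKO PBS, and 5.67, 5.96, 6.09 and 5.95 in GR iKO DEX. The highest array was from GR iKO PBS and the lowest from GR iKO DEX, and the groups overlapped. The change of *Cycs* with DEX was 0.07 in Flox and −0.13 in GR iKO mice, with limma adjusted p = 0.818 and 0.559.

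The promoters of the members were richer in CpG pairs, and in sites of factors known to act on mitochondrial genes, than promoters of all genes. RefSeq starts gave a window of 300 bases, 250 before and 50 after the start, for 76 of the 92 members and for 27025 genes in all. The core site of nuclear respiratory factor 1 (NRF1), GCGCANGCG, was present in 23 of the 76 members (30.3%) and in 7.0% of all genes. The site ACCGGAAG of GABPA was present in 10.5% of members and 2.6% of all genes, and the YY1 core AAGATGGCG in 9.2% and 1.6%. The site TNAAGGTCA bound by the estrogen-related receptors was present in 3.9% and 1.4%. The core of the GR element, ACANNNTGT, was present in 0 of the 76 members and in 7.9% of all genes. The median member window held 58.3% G and C and 20 CpG pairs, beside 52.7% and 7 over all genes. These motifs were chosen after the expression values had been seen, and a match describes the sequence only. The *Cycs* promoter is printed because it holds an NRF1 core, shown in capitals and starting 61 bases before the start, at chr6:50566570-50566819 on the minus strand of GRCm38.p6.

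Cycs: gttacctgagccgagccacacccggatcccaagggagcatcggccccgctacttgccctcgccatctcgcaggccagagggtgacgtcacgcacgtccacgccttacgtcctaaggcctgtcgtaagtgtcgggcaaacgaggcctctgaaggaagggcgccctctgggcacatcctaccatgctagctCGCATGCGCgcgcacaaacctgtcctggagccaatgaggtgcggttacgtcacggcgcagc

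The first comparison asks what DEX does to the chain genes when all cells of the colon have GR. The members stayed close to their level in the vehicle group. Established responses to the drug were seen in the same RNA, since *Tsc22d3* rose by a log2 of 1.91 and *Pdk4*, whose product limits the entry of pyruvate into the citrate cycle, rose by 3.35. limma called 0 of 92 members, while 1.63% of all probes were called higher, 1.54% lower and 3.17% either way. Without adjustment 3 members (3.26%) had p under 0.05, beside 19.0% of all probes. The methods' t-test gave 13, and the share of all probes was not taken for its unadjusted counts, here or below. After adjustment it called 0 members and 0 of all probes in Flox mice given DEX. The paper names that test for a pair of small groups in its other data, and its array statistics are in a supplement that was not available. A change that is not called has not been shown to be absent. The intervals below hold the spread between arrays of a group. They hold no effect of slide or of the choice of scaling, so they set no firm bound on a change.

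The median change of the members was 0.03, beside 0.06 over all probes, and 57 were above 0 and 35 below. That sign turned to −0.05 with median scaling and to −0.19 with a background correction (normexp) that moves the all-probe median by 0.50. The middle 50% of members lay between −0.05 and 0.09, and the middle 50% of all probes between −0.14 and 0.24. The median 95% interval reached 0.22 to either side, and for 89 of 92 members the whole interval lay within a 2-fold change. The exceptions were *Cox4i2*, *Cox8b* and *Cox8c*. For 84 members it lay within a 1.5-fold change.

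By complex, the median was 0.03 for complex I, 0.03 for complex II, 0.09 for complex III, 0.07 for complex IV and 0.02 for complex V, and each of them turned negative with normexp, as all but that of complex III also did with median scaling. *Ndufb10* (0.02), *Sdhb* (−0.04), *Cox7a2l* (0.07) and *Atp5g2* (0.02) stood nearest the middle of their complexes. All 8 genes of complex III were above 0, from 0.03 for *Uqcrc2* to 0.17 for *Uqcrh*, again with the sign of their median reversed by normexp. The 7 assembly factors had a median of −0.01. None of these differences was called.

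Among members well above background on all arrays, the largest values in Flox mice belonged to *Ndufa4*, *Cox8b* (−0.41, limma adjusted p = 0.702), *Atp5mpl* and *Ndufaf4* (0.37, limma adjusted p = 0.418). The *Cox8b* value changed sign without Flox PBS replicate 2 and was −0.05 with normexp. *Ndufa4*, a subunit of complex IV, measured 5.18, 4.81, 4.92 and 4.87 with PBS and 5.40, 5.37 and 5.38 with DEX, and the 3 DEX arrays lay above the 4 PBS arrays. The log2 difference was 0.44 (standard error 0.15, limma adjusted p = 0.14). In GR iKO mice the same gene measured 5.51, 4.96 and 4.83 with PBS and 4.92, 4.94, 4.99 and 5.20 with DEX, which overlap. The complex V gene *Atp5mpl* measured 5.44, 5.08, 5.41 and 5.31 with PBS and 4.86, 4.70 and 5.25 with DEX, where 1 DEX array lay among the PBS arrays. Its log2 difference was −0.38 (standard error 0.14, limma adjusted p = 0.16), and in GR iKO mice it measured 5.46, 5.24 and 5.27 with PBS and 5.31, 5.33, 5.50 and 5.52 with DEX. The complex I gene *Ndufs8* differed by −0.28 (limma adjusted p = 0.324) and *Ndufa2* by 0.21 (limma adjusted p = 0.315).

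**Figure D2:**
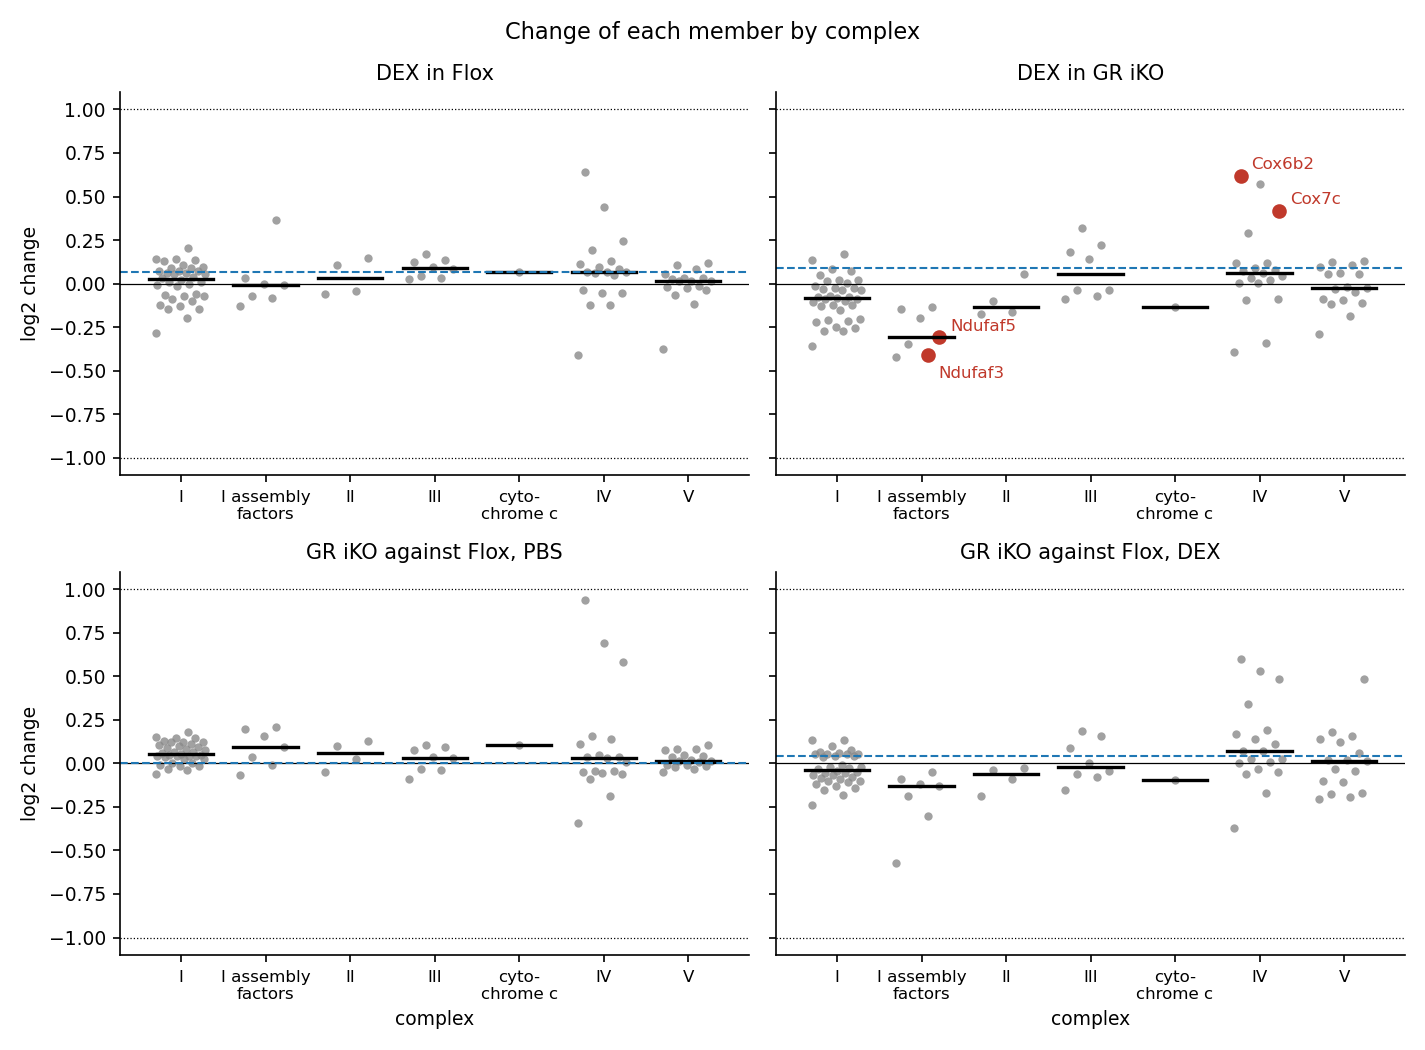
log2 change of each member by complex in 4 comparisons. Points are genes, red points are called by limma, black bars are medians of a complex, the blue dashed line is the median of all probes and dotted lines mark a 2-fold change.

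The second comparison asks what DEX does when epithelial cells lack GR and other cells keep it. Of 5 genes known to respond to glucocorticoids, *Tsc22d3* and *Pdk4* rose, by 1.61 and 3.49. *Sgk1* (0.66), *Fkbp5* (0.94) and *Per1* (−0.14) were not called, whereas 4 of the 5 were called higher in Flox mice. limma called 2 genes of complex IV higher and a pair of complex I assembly factors lower, each by less than 2-fold. None of these 4 was called when only the groups compared were fitted or with normexp. After adjustment, the methods' t-test kept only *Ndufaf5* of them. In RNA of the whole colon, fewer cells of a type and less RNA per cell cannot be told apart.

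limma called 2 of 92 members higher (2.17%) and 2 lower, while 8.15% of all probes were called higher, 3.53% lower and 11.7% either way. The balance of calls over the array depends on scaling, since higher calls were 69.8% of all calls here, 48.9% after quantile normalization and 38.2% after median scaling. Without adjustment 13 members (14.1%) had p under 0.05, beside 27.7% of all probes, and the methods' t-test also gave 13. The median member changed by −0.04 and the median probe by 0.09, and 36 members were above 0 and 56 below. The median of the members stayed below 0 under the 4 other scalings, at −0.01 with quantile normalization, −0.19 with median scaling, −0.07 in the deposited log2 table and −0.04 with normexp. Those scalings moved the all-probe median by −0.10, −0.15 and −0.11 in the first 3 cases. The middle 50% of members lay between −0.14 and 0.06, and 89 of 92 intervals lay within a 2-fold change, the exceptions being *Cox7b2*, *Cox8b* and *Cox8c*.

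*Cox6b2* (gene 333182, chromosome 7) encodes a form of complex IV subunit 6b best known from testis. It measured −0.47, −0.95 and −1.03 in GR iKO PBS and −0.18, −0.24, −0.11 and −0.26 in GR iKO DEX, with means ± SD of −0.82 ± 0.30 (n = 3) and −0.20 ± 0.07 (n = 4). In Flox mice it measured −0.68, −0.59, −0.66 and −0.60 with PBS and −0.24, −0.38 and −0.54 with DEX. Every DEX array lay above every PBS array of the same genotype, and the widest group was GR iKO PBS. *Cox6b2* rose by 0.62 with DEX in GR iKO mice (95% interval 0.34 to 0.90, limma adjusted p = 0.0113), and the difference in Flox mice was 0.24 (limma adjusted p = 0.328). Of 10 other settings 6 kept the call, as did all 14 fits with 1 array left out. These settings, here and for the genes below, are not independent tests. The deposited table is itself quantile normalized, and a 2-fold minimum drops every change below 2-fold. Each called gene has a single probe, so averaging probes leaves its change as it is. So does leaving out saturated spots, since 0 members had any. *Cox6b1*, the form expressed throughout the body, had a change of 0.00 in GR iKO mice.

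*Cox7c* (gene 12867, chromosome 13) encodes a small subunit of complex IV without a tissue-restricted form. It measured 2.98, 2.92 and 3.09 in GR iKO PBS (mean 3.00 ± 0.08) and 3.20, 3.28, 3.58 and 3.61 in GR iKO DEX (3.42 ± 0.20). Flox mice gave 3.20, 2.99, 3.09 and 3.07 with PBS and 3.38, 3.26 and 3.19 with DEX. The GR iKO groups did not overlap, replicates 3 and 4 with DEX were the highest arrays, and the Flox groups overlapped at a single array. *Cox7c* rose by 0.42 in GR iKO mice (95% interval 0.17 to 0.67, limma adjusted p = 0.0337), and the difference in Flox mice was 0.19 (limma adjusted p = 0.397). It stayed called in 4 of 11 other settings, and with median scaling its change was 0.27 (limma adjusted p = 0.181).

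*Ndufaf3* (gene 66706, chromosome 9) encodes an early assembly factor of complex I. It measured 1.37, 1.46 and 1.29 in GR iKO PBS (mean 1.37 ± 0.08) and 0.73, 0.94, 1.16 and 1.02 in GR iKO DEX (0.96 ± 0.18). Flox PBS gave 1.10, 1.14, 1.34 and 1.13, and Flox DEX 1.04, 1.06 and 1.06. The GR iKO groups did not overlap, and replicate 1 with DEX was the lowest array of all. *Ndufaf3* fell by 0.41 in GR iKO mice (95% interval −0.64 to −0.18, limma adjusted p = 0.028), and the difference in Flox mice was −0.13 (limma adjusted p = 0.577). For *Ndufaf3*, too, 6 of 10 other settings kept the call, and 9 of 14 fits with 1 array left out did.

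*Ndufaf5* (gene 69487, chromosome 2) encodes a factor that hydroxylates the complex I subunit NDUFS7. It measured 0.02, −0.07 and −0.16 in GR iKO PBS (mean −0.07 ± 0.09) and −0.39, −0.42, −0.33 and −0.35 in GR iKO DEX (−0.37 ± 0.04). The Flox PBS arrays gave −0.05, −0.17, −0.08 and −0.10 and the Flox DEX arrays 0.12, −0.14 and −0.19. All 4 GR iKO DEX arrays lay below the 10 others. *Ndufaf5* fell by 0.30 in GR iKO mice (95% interval −0.50 to −0.11, limma adjusted p = 0.0464), while the change in Flox mice was 0.03 (limma adjusted p = 0.884). The call held in 6 of 10 other settings, with the replicate block among those that lost it, and in 2 of 14 fits with 1 array left out.

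**Figure D3:**
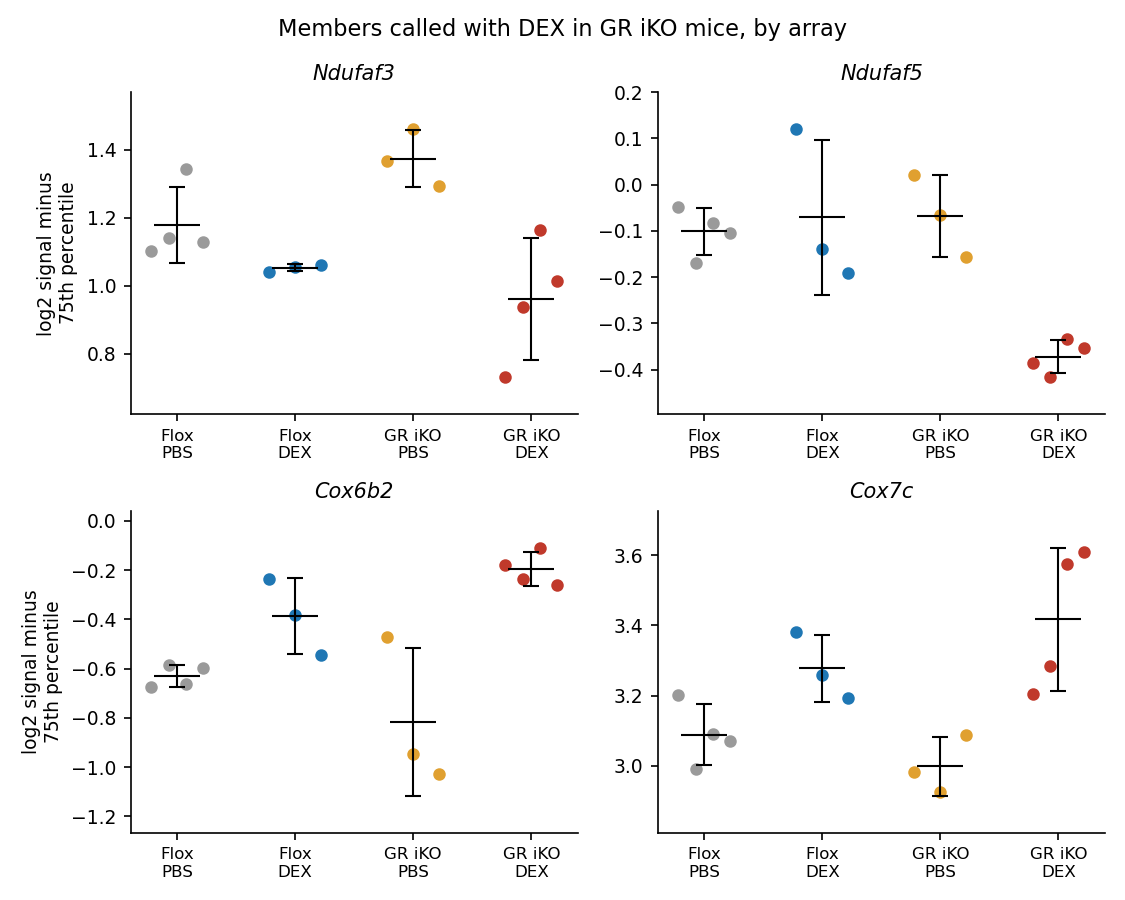
Signal of the 4 members called with DEX in GR iKO mice, on every array of the 4 groups. The vertical axis is log2 signal minus the 75th percentile, points are mice, and bars are mean ± SD.

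Promoters of these 4 genes are printed because they carry the called changes. Each line gives the 250 bases before the RefSeq start on GRCm38.p6, and none of these lines holds any of the 5 motifs named above. *Ndufaf5* is still among the 23 members with an NRF1 core, since in its window of 300 bases a match takes in bases after the start, which are not printed. The windows are chr7:4753095-4753344 for *Cox6b2*, chr13:86046796-86047045 for *Cox7c* and chr9:108567437-108567686 for *Ndufaf3*, all on the minus strand, and chr2:140170396-140170645 on the plus strand for *Ndufaf5*.

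Cox6b2: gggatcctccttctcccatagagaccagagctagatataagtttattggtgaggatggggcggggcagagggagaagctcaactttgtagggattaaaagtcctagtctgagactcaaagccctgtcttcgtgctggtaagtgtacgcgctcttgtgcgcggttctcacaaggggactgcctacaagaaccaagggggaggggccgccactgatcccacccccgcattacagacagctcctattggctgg
Cox7c: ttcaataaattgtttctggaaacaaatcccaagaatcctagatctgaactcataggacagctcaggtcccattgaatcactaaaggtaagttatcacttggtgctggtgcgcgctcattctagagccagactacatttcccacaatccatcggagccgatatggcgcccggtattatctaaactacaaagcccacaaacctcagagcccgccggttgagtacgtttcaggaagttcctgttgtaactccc
Ndufaf3: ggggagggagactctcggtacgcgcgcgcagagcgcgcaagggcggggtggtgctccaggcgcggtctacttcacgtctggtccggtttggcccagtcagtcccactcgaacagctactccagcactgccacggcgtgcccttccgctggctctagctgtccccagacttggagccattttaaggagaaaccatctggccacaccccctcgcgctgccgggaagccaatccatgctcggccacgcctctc
Ndufaf5: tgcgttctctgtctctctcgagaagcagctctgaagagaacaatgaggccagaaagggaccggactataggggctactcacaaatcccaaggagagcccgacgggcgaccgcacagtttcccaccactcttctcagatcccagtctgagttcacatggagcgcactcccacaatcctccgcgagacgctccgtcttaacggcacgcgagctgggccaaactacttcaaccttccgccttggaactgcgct

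The complexes differed little beside these genes in GR iKO mice given DEX. All 7 assembly factors of complex I were below 0, with a median of −0.30 that stayed negative under every scaling and was −0.19 with normexp. Of the 7, all but *Ndufaf2* lie in array rows 355 to 532, where bright probes of any gene had a median of −0.06, beside 0.02 and −0.01 in the earlier rows. Among those not called, *Ndufaf4* had −0.42 (limma adjusted p = 0.256), *Ndufaf6* −0.35 (limma adjusted p = 0.109) and *Ndufaf7* −0.19 (limma adjusted p = 0.209). The 36 genes of complex I had a median of −0.08, with 27 below 0, and this sign held under every scaling. Complex II had a median of −0.13, again negative under every scaling. Medians of 0.05 for complex III and 0.06 for complex IV turned to −0.09 and −0.08 with median scaling, and that of −0.03 for complex V turned to 0.02 with quantile normalization and to 0.01 with normexp. *Ndufa7* (−0.08), *Sdhc* (−0.10), *Uqcr10* (−0.03), *Cox7a2* (0.06) and *Atp5b* (−0.03) stood nearest the middle.

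Some members that were not called also separated the GR iKO groups, and others came close. *Ndufs7*, of complex I, measured 5.49, 5.38 and 5.30 with PBS and 4.97, 5.13, 5.13 and 5.23 with DEX, without overlap. Its log2 difference was −0.27 (standard error 0.09, limma adjusted p = 0.0583). *Atp5a1*, the alpha subunit of complex V, did not overlap either and had a difference of −0.29 (limma adjusted p = 0.054), with 3 arrays for GR iKO DEX since 1 spot was an outlier. A second probe of *Atp5a1*, also well above background on all 14 arrays, had 0.02 (limma adjusted p = 0.919). *Ndufa10*, of complex I, measured 3.34, 3.17 and 3.03 with PBS and 2.79, 2.85, 2.62 and 3.04 with DEX, and 1 DEX array reached the PBS arrays. The difference was −0.36 (standard error 0.11, limma adjusted p = 0.0627), and in Flox mice −0.20. *Uqcr11*, of complex III, measured 6.26, 5.94 and 5.86 with PBS and 6.20, 6.31, 6.50 and 6.35 with DEX, so that 1 PBS array lay among the DEX arrays, and the difference was 0.32 (standard error 0.11, limma adjusted p = 0.0743).

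Each of the 4 called genes has a single probe, so no second probe bears on its call. Of 26 further probes for 20 of the members, limma called 4 lower and 0 higher in GR iKO animals given DEX. Over all probes of the array, 3.53% were called lower there. The 4 were 1 for *Ndufaf7* (−0.39, limma adjusted p = 0.00843) and 1 for *Sdha* (−0.48, limma adjusted p = 0.0175). The other 2 were for *Atp5b* (−0.40 and −0.39, limma adjusted p = 0.0246 and 0.0331). The brighter probes of the same genes gave −0.19, −0.16 and −0.03 and were not called, and these examples were picked after the values were seen. *Cox6b2*, *Ndufaf3* and *Ndufaf5* lie in array rows 355 to 532, where higher calls over all probes with DEX in GR iKO mice numbered 1980, beside 660 in rows 1 to 177 and 714 in rows 178 to 354. Lower calls, the direction of *Ndufaf3* and *Ndufaf5*, were spread more evenly, with 572 in rows 355 to 532 beside 458 and 424. The median change of members was −0.03, 0.00 and −0.09 from the first to the last of these blocks.

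A further comparison asks what loss of epithelial GR does to the chain in ADX mice without drug. The median chain gene stood at nearly the same level in both genotypes. limma called 0 of 92, and 0.0704% of all probes were called higher, 0.0899% lower and 0.16% either way. Unadjusted p was under 0.05 for 2 members (2.17%) by limma, beside 7.79% of all probes, and for 2 by the methods' t-test. The median was 0.04, beside 0.00 over all probes, and 65 members were above 0, a sign that held under every scaling. For 88 of 92 members the 95% interval lay within a 2-fold change, with *Cox4i2*, *Cox6a2*, *Cox8b* and *Cox8c* as the exceptions. Complex medians ran from 0.01 for complex V to 0.06 for complex II, that of complex IV turned to −0.02 with normexp, and the assembly factors had 0.09.

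Another comparison sets the genotypes side by side after DEX, and it shares its arrays with the comparisons above. It asks whether the chain genes differ once both genotypes have received the drug. limma called 0 of 92 members, beside 0.158% of all probes called higher, 0.126% lower and 0.284% either way, and 7 members by limma (7.61%, beside 13.6% of all probes) and 9 by the methods' t-test had unadjusted p under 0.05. The median was −0.03, beside 0.04 over all probes, and it turned to 0.03 with quantile normalization and to 0.17 with normexp, which moved the all-probe median by −0.50. For 88 of 92 members the 95% interval lay within a 2-fold difference, and the exceptions were *Ndufaf4*, *Cox7b2*, *Cox8b* and *Cox8c*. Between GR iKO and Flox mice *Ndufaf4* differed by −0.57 (limma adjusted p = 0.293), *Cox6a2* by 0.53 (limma adjusted p = 0.303) and *Atp5mpl* by 0.48 (limma adjusted p = 0.164). *Ndufaf5* differed by −0.30 (limma adjusted p = 0.174), *Ndufa4* by −0.37 (limma adjusted p = 0.314), *Ndufc2* by −0.24 (limma adjusted p = 0.329) and *Atp5j* by −0.21 (limma adjusted p = 0.373).

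Whether the response to DEX differs between genotypes was asked directly by the interaction of genotype and treatment. limma called 0 of 92 members, with 0.206% of all probes called higher, 0.0461% lower and 0.253% either way, and 8 members (8.70%) had unadjusted p under 0.05, beside 12.1% of all probes. The methods' t-test has no form for this contrast. The 4 genes called in GR iKO mice were not called here, with 0.38 for *Cox6b2* (limma adjusted p = 0.434), 0.23 for *Cox7c* (limma adjusted p = 0.634), −0.29 for *Ndufaf3* (limma adjusted p = 0.489) and −0.34 for *Ndufaf5* (limma adjusted p = 0.305). A response called in one genotype only is therefore not a shown difference between genotypes. The member median was −0.07, beside 0.02 over all probes, and normexp turned it to 0.10. Intervals were wider, with a median reach of 0.31 to either side, and 74 of 92 lay within a 1.5-fold difference.

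Single members had larger differences between the responses. *Ndufaf4* measured 1.97, 1.78, 2.60 and 1.80 in Flox PBS, 2.40, 2.62 and 2.19 in Flox DEX, 2.27, 2.58 and 1.90 in GR iKO PBS, and 1.57, 1.66, 2.09 and 2.00 in GR iKO DEX. All groups overlapped except Flox DEX and GR iKO DEX. The difference of responses was −0.78 (standard error 0.32, limma adjusted p = 0.342). *Ndufa4* had −0.53 (limma adjusted p = 0.344), *Ndufc2* −0.36 (limma adjusted p = 0.333) and *Atp5mpl* 0.47 (limma adjusted p = 0.353), and none was called.

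Complex IV has tissue-restricted forms, and these made up 6 of the 7 members with the widest spread within groups, the other being *Ndufaf4* with 0.31. *Cox6b2*, also a restricted form, had a spread of 0.16. *Cox4i2*, the form of subunit 4 known from lung and from cells that sense oxygen, lay close to the detection limit, above background on 1 of 4 Flox PBS, 2 of 3 Flox DEX, 3 of 3 GR iKO PBS and 4 of 4 GR iKO DEX arrays. It measured −6.19, −6.24, −5.82 and −6.04 in Flox PBS, −5.18, −5.56 and −5.56 in Flox DEX, −5.58, −5.25 and −5.32 in GR iKO PBS, and −4.84, −4.83, −5.10 and −5.60 in GR iKO DEX. The 4 Flox PBS arrays were the lowest and overlapped no other group. Since most Flox PBS spots were not above background, the size of its differences is uncertain. The log2 difference was 0.64 with DEX in Flox mice (limma adjusted p = 0.0902) and 0.69 between genotypes with PBS (limma adjusted p = 0.242), the latter turning to −0.04 with normexp. *Cox4i1*, the form found in most tissues, differed by −0.05 and 0.03.

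The muscle forms of complex IV were measured as well. *Cox6a2* gave −4.06, −3.87, −3.16 and −4.13 in Flox PBS and −3.45, −3.07 and −3.15 in GR iKO PBS, where 1 Flox array lay among the GR iKO arrays, and the difference was 0.58 (limma adjusted p = 0.454). *Cox7a1* gave 5.36, 5.04 and 5.39 in GR iKO PBS and 4.98, 4.95, 4.86 and 4.93 in GR iKO DEX, which did not overlap, and the difference was −0.34 (limma adjusted p = 0.257). *Cox8b*, known from muscle and brown fat, gave −2.27, 0.12, −1.98 and −2.28 in Flox PBS, and replicate 2 stood above all 13 other arrays. On that array 6 adipocyte markers had a mean of 1.39, beside −1.40, 0.68 and −0.80 on the other Flox PBS arrays. Brown adipocyte markers had −3.62 there, beside −3.83, −4.42 and −3.90, and striated muscle markers −3.22, beside −3.29, −3.17 and −3.20. What part fat or muscle played in the *Cox8b* value was not tested.

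**Figure D4:**
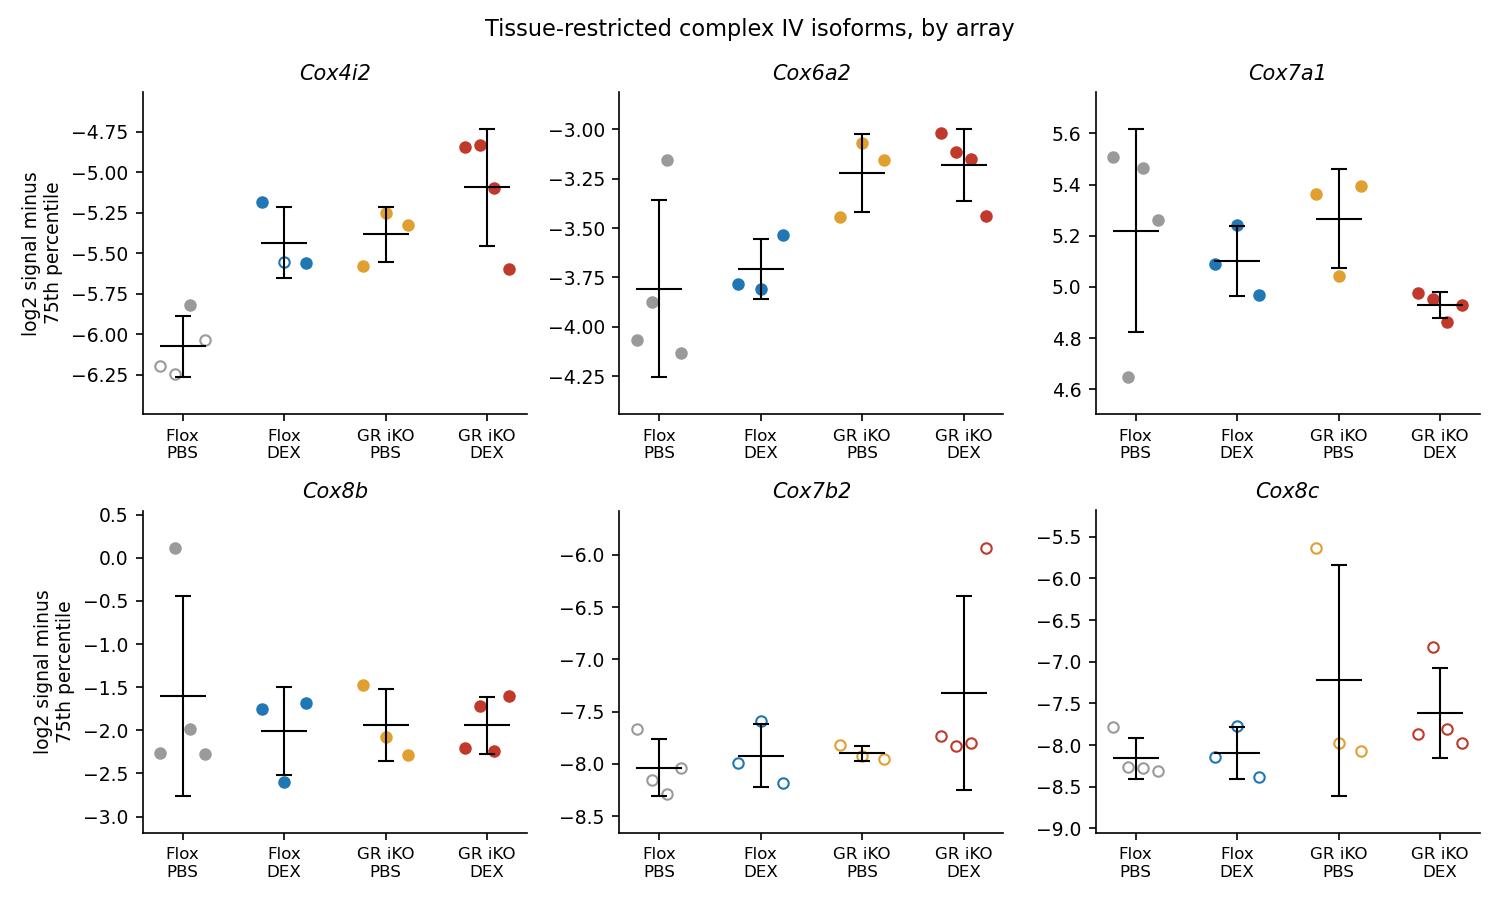
Signal of 6 tissue-restricted genes of complex IV on every array of the 4 groups. The vertical axis is log2 signal minus the 75th percentile, open circles are spots not well above background, and bars are mean ± SD.

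Other mitochondrial gene lists place the chain genes in context. In Flox mice given DEX, 0 genes were called among 32 further assembly factors of the complexes (median 0.01), 13 citrate cycle genes (−0.01) and 78 genes of the mitochondrial ribosome (0.03). The same lists had negative medians with DEX in GR iKO mice under every scaling, beside −0.04 for the chain genes and 0.09 for all probes.

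The mitochondrial ribosome makes the subunits that mitochondrial DNA encodes, and in GR iKO mice given DEX its 78 genes had a median of −0.18, with 69 below 0. Of these, 9 fell (11.5%, beside 3.53% of all probes called lower) and 0 rose, among them *Mrpl37* by 0.62 (limma adjusted p = 0.00963), *Mrps18b* by 0.58 (limma adjusted p = 0.0127), *Mrps27* by 0.55 (limma adjusted p = 0.00431) and *Mrpl19* by 0.53 (limma adjusted p = 0.0103). Among the 32 assembly factors the median was −0.16 with 25 below 0, and 5 fell (15.6%). These were *Bcs1l*, needed by complex III, with −0.52 (limma adjusted p = 0.0267), *Cox10*, needed for the heme of complex IV, with −0.44 (limma adjusted p = 0.0356), *Uqcc1* with −0.36 (limma adjusted p = 0.031), and the complex I factors *Ecsit* and *Acad9* with −0.39 and −0.36 (limma adjusted p = 0.0156 and 0.0325).

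Further lists hold genes that feed electrons or substrates to the chain. All 13 citrate cycle genes were below 0 in GR iKO mice given DEX, with a median of −0.22, and 3 fell (23.1%), *Idh3a* by 0.66 (limma adjusted p = 0.0208), *Idh3b* by 0.37 (limma adjusted p = 0.0274) and *Suclg1* by 0.29 (limma adjusted p = 0.0403). Among 13 genes of electron entry and carriers outside the member rule, *Dhodh* fell by 0.47 (limma adjusted p = 0.0293) and the phosphate carrier *Slc25a3* by 0.45 (limma adjusted p = 0.0126), while 3 of the 13 were above 0. The 13 genes of fatty acid oxidation and ketogenesis had a median of 0.07, which turned to −0.08 with median scaling, and 0 calls by limma. With normexp 0 genes of these lists were called lower. After adjustment, the methods' t-test kept 0 of the 9 mitochondrial ribosome calls, 0 of the 5 for assembly and 0 of the 3 for the citrate cycle. Lower calls in the same order numbered 29, 13 and 8 with median scaling, and 14, 6 and 3 with quantile normalization. With the filter on dim probes they numbered 15, 7 and 4. Fitting only the groups compared gave 3, 0 and 1 lower calls, with the medians unchanged, and the replicate block gave 6, 3 and 1. Lower calls over all probes moved as well, from 1454 without these changes to 3745 with median scaling and 2522 with quantile normalization. They numbered 2016 with the filter on dim probes, 667 with only the groups compared and 989 with the replicate block. Without array rows 355 to 532, 4 of 55 mitochondrial ribosome genes, 4 of 20 assembly factors and 1 of 8 citrate cycle genes were called lower. Lower calls over all remaining probes numbered 602. The list medians without those rows were −0.16, −0.17 and −0.14. None of the genes of these lists was called in the interaction, and the median of the mitochondrial ribosome there was −0.21. Between GR iKO and Flox mice with PBS its median was 0.08, with 69 of 78 genes above 0. Between genotypes with DEX it was −0.13, which turned to 0.03 with normexp. In GR iKO mice given DEX, the 84 cytosolic ribosome genes had a median of −0.04. Of these genes 1 was called higher (1.19%) and 2 lower (2.38%), beside 8.15% and 3.53% of all probes. Among 14 glycolysis genes *Pfkl* fell by 0.46 in Flox mice given DEX (limma adjusted p = 0.0342). Its probe lies in array rows 355 to 532. That call was lost with normexp, with the replicate block, with the methods' t-test and when only the groups compared were fitted.

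**Figure D5:**
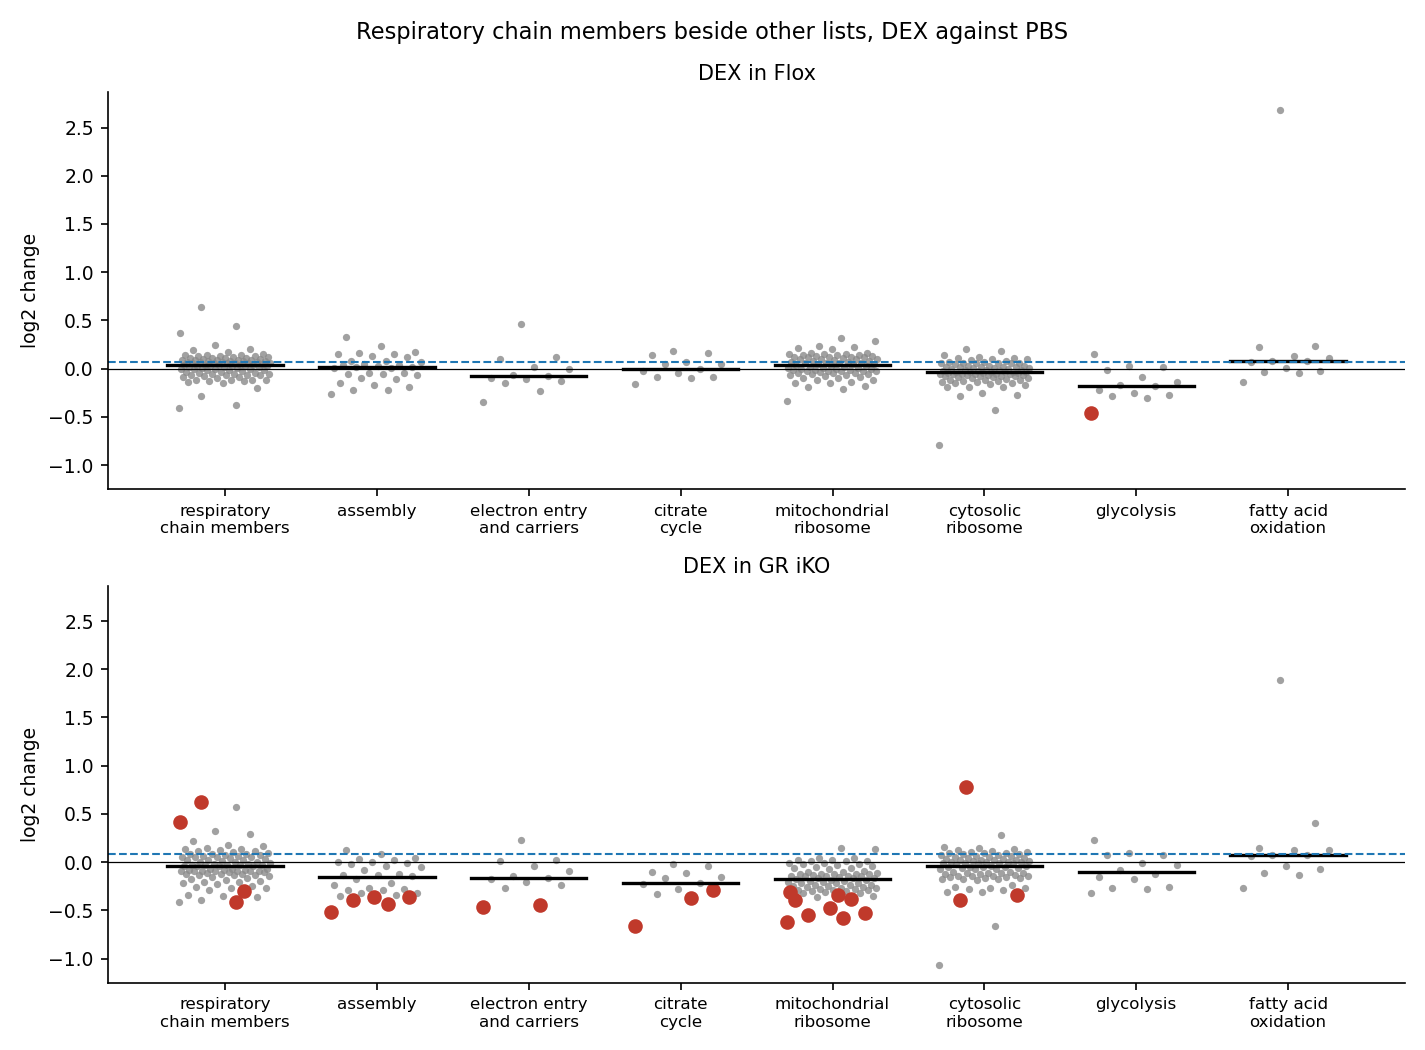
log2 change with DEX of the genes of each list in Flox and in GR iKO mice. Points are genes, red points are called by limma, black bars are list medians, the blue dashed line is the median of all probes, and the chain genes form the first column.

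Of the 16 regulators of mitochondrial genes, 1 was called in the interaction. *Ppard*, a nuclear receptor for fatty acids, measured −3.23, −3.45, −3.20 and −3.24 in Flox PBS, −3.79, −3.92 and −4.03 in Flox DEX, −3.79, −3.47 and −3.86 in GR iKO PBS, and −3.25, −3.31, −3.48 and −3.31 in GR iKO DEX. The 3 Flox DEX arrays lay below the 4 Flox PBS arrays, and in GR iKO mice 1 array of each group met. *Ppard* fell by 0.63 in Flox mice (limma adjusted p = 0.0148), stood 0.36 above vehicle in GR iKO mice (limma adjusted p = 0.0582), and differed in its response by 1.00 (standard error 0.16, limma adjusted p = 0.0315). That difference was 0.90 and not called with quantile normalization (limma adjusted p = 0.0566), and −0.01 with normexp. Median scaling (0.93), the deposited table (0.90) and the replicate block (0.95) also lost the call, while the filter on dim probes kept it. The *Ppard* probe lies in array rows 355 to 532, which hold 67 of the 85 higher interaction calls of the array. *Pprc1*, a coactivator related to PGC-1α, fell by 0.38 in GR iKO mice (limma adjusted p = 0.049). This call was lost with normexp, with the replicate block, with the methods' t-test and when only the groups compared were fitted. *Ppargc1a* itself had 0.85 in Flox mice (limma adjusted p = 0.141).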

How the data were processed

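The authors deposited, per the file headers, the spot intensity of each array after background subtraction and detrending by the scanner software (12.0.0.7), without scaling between arrays. They also deposited a log2 table made with Partek 6.6, whose values show quantile normalization. Groups follow the sample names, since the treatment text of the labels names DEX for every mouse.

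Outlier spots were left out, 245 repeated probes were averaged, and log2 intensity minus the 75th percentile of the array was fitted with limma 3.58.1 in R 4.3.3, with 4 group means and 5 contrasts. Adjustment was by Benjamini and Hochberg over all probes, and intervals are at 95%. Of 29245 probes with a RefSeq accession, 28215 had a symbol, and 12959 probes stayed unnamed. Python 3.11.15, pandas 2.3.3, numpy 2.4.6 and matplotlib 3.10.9 made tables and figures.

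The alternatives were quantile normalization, median scaling, the deposited table, normexp with offset 50 on median spot intensity, a filter on dim probes, averaging the probes of each gene, a fit of only the groups compared, the methods' t-test, a replicate block, a 2-fold minimum, saturated spots left out, array rows 355 to 532 left out, and each array left out. The rows were chosen after the data had been seen, and members and lists were chosen with earlier results of these data known. The Supplemental Methods, which hold the array statistics of the study, were not available, so the t-test is the one its main text names for a pair of small groups in other data. Its calls here are after adjustment unless given as unadjusted, whereas the main text names p under 0.05 for it.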

Additional observations from a re-analysis of the deposited data

Results flagged for a closer look

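Single arrays that stand apart were searched for with the Dixon ratio, the gap to the nearest array divided by the range of the group, in groups of 4 arrays. Of 163 groups tested, 10 passed, and chance alone gives about 1 in 20, or 8.15.

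In Flox PBS the ratio was 0.878 for *Cox8b* (replicate 2 at 0.12, the others from −2.28 to −1.98), 0.849 for *Ndufaf3* (replicate 3 at 1.34, the others from 1.10 to 1.14) and 0.924 for *Cox6b1* (replicate 3 at 2.69, the others from 2.54 to 2.55). It was 0.882 for *Cox7a2* (replicate 1 at 6.03, the others from 5.90 to 5.91) and 0.910 for *Cox8c* (replicate 1 at −7.79, the others from −8.31 to −8.27). In GR iKO DEX it was 0.950 for *Cox7b2* (replicate 4 at −5.93), 0.862 for *Cox8c* (replicate 2 at −6.82) and 0.896 for *Uqcrfs1* (replicate 1 at 5.34, the others from 5.56 to 5.59). *Cox7b2* and *Cox8c* were not above background, so their values carry little weight. In the same group the mean of the regulators had 0.838 (replicate 2 at −0.21) and the mean of the smooth muscle markers 0.853 (replicate 1 at 5.47, the others from 6.10 to 6.21).

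The response to DEX differed between genotypes for 3 genes of the lists, by 1.00 for *Ppard* (limma adjusted p = 0.0315), by −2.56 for *Sgk1* and by −2.71 for *Fkbp5* (both with limma adjusted p = 0.0436). The last pair are direct GR targets, and no chain gene was among those called. The probe of *Ppard* lies in array rows 355 to 532. Without those rows *Sgk1* and *Fkbp5* had −2.57 and −2.72, nearly as before, though not called (both with limma adjusted p = 0.0905). Neither was called with quantile normalization, the deposited table, normexp (−2.37 and −2.39) or the replicate block. Median scaling and the filter on dim probes kept both calls.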

How the results depend on the processing

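The count of members called with DEX in GR iKO mice, 4 here, depended most on the setting. It was 13 with median scaling (1 higher, 12 lower), 7 with the deposited log2 table, 8 with the filter on dim probes and 6 with quantile normalization. Calls over all 41174 probes moved as well, from 3354 higher and 1454 lower here to 2317 and 3745 with median scaling. They were 2374 and 2637 with the deposited table, and 2416 and 2522 with quantile normalization. The filter on dim probes gave 3691 and 2016 of 29109 probes. The methods' t-test gave 2 members after adjustment, beside 981 probes higher and 347 lower, and 13 members without it. The count was 0 with normexp, 0 when only the groups compared were fitted, and 0 with the 2-fold minimum. Without array rows 355 to 532, a setting chosen after the data had been seen, it was 0 of 61, but 3 of the 4 genes lie in those rows, so the setting bears only on *Cox7c*, whose change stayed at 0.41 (limma adjusted p = 0.0554). A block for the replicate number gave 2, although it is not known whether the numbers pair arrays across groups. The median r was 0.0544 for pairs of the same number, beside −0.0097 for other pairs, and 5 of 18 same-number pairs were over 0.1. Leaving out 1 array at a time gave 1 to 4 calls with DEX in GR iKO mice, 0 to 1 with DEX in Flox mice and 0 elsewhere. *Cox6b2* stayed called in 14 of 14 such fits, *Cox7c* in 9, *Ndufaf3* in 9 and *Ndufaf5* in 2.

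The member median moved to −0.19 with DEX in Flox mice under normexp and to −0.19 with DEX in GR iKO mice under median scaling. Under normexp it moved to 0.17 between genotypes with DEX and to 0.10 for the interaction. Single genes changed sign with normexp: *Cox7c* with DEX in Flox mice to −0.0379, *Cox4i2* between genotypes with PBS to −0.0382, and between genotypes with DEX *Cox6a2* to −0.30, *Cox4i2* to −0.63, *Ndufc2* to 0.0045 and *Atp5j* to 0.0715. *Cox4i2* with DEX in GR iKO mice had −0.014 with quantile normalization and −0.0169 in the deposited table.

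*Cox8b* depended on a single Flox PBS array. With each array left out in turn it ranged from −0.63 to 0.16 with DEX in Flox mice, from −0.57 to 0.23 between genotypes with PBS and from −0.16 to 0.65 for the interaction, and leaving out Flox PBS replicate 2 gave the values of opposite sign. The cause of these shifts was not tested.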

Other observations

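Markers of cell types beside the epithelium moved in part with DEX, in RNA that also carries the chain genes. Smooth muscle markers had a median change of 0.62 in Flox mice, where *Myh11* rose by 0.90 (limma adjusted p = 0.0199), and of 0.21 in GR iKO mice. The 4 endothelial markers had medians of −0.75 and −0.78 in the 2 genotypes, the former turning to 0.12 with normexp. Of these, *Kdr* fell by 1.00 and 1.05 and *Pecam1* by 0.53 and 0.51, while *Cdh5* had −0.15 and −0.01. In GR iKO mice *Tek* also fell, by 1.23, as did the T cell gene *Cd3g*, by 1.17, and the striated muscle gene *Tnnc2* rose by 1.31. All 6 macrophage markers were below 0 in each genotype, with medians of −0.78 and −0.59 and 0 calls by limma. Fibroblast markers had medians of −0.58 and −0.31 and B cell markers of −0.90 and −0.94, again with 0 calls, while the 8 small intestine markers had medians of 0.07 and 0.30, with *Lct* up by 3.83 and 4.29 and *Fabp6* down, at −0.96 and −0.89. Exocrine pancreas markers had the largest medians, 4.84 and 3.95, with 0 calls, and were high on 5 of the 14 arrays, none of them from GR iKO PBS. Whether these marker changes reflect cell content, and whether they bear on the chain genes, was not tested.

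Limits of these data are the 3 or 4 arrays per group, a single time point at 6 hours, and a slide for each group, so that slide and group cannot be told apart. Transcripts were measured, and protein, complex assembly and respiration were not. The mitochondrially encoded subunits have no named probe. Most intervals of the chain genes lie within a 2-fold change. They hold the spread between arrays but no effect of slide or scaling, so they set no firm bound, and smaller changes remain possible. The calls in GR iKO mice depend on scaling, and 3 of the 4 genes lie in the same block of array rows. The labels and the paper differ on the age at surgery.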
